A study of Sus scrofa with 18 samples.

Results

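AMPA receptors are the glutamate-gated channels that carry most fast excitatory transmission in the brain. Their genes were followed through whole fetal brains of domestic pigs at gestation days 45, 60 and 90 (GD45, GD60 and GD90). The set was fixed by gene name and holds 9 genes. These are the pore-forming subunits GRIA1, GRIA2, GRIA3 and GRIA4, the transmembrane AMPA receptor regulatory proteins CACNG2, CACNG3, CACNG4 and CACNG8, and the cornichon CNIH2. Of the 31908 genes in the deposited gene table, 8 carry these names. CNIH2 has no row of its own, and it was read from exons instead. All 8 genes found by name passed the filter on low counts.

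The study compared fetal age and fetal sex. Each of the 6 groups held 3 untreated fetuses, female or male, at GD45, GD60 or GD90, counted from artificial insemination as day 1. The dams were Landrace x Large White gilts bred to LR-M6, and the labels name no mutation or treatment. Poly(A) RNA of the whole brain was sequenced in 18 libraries, so regions and cell types were not separated, and fewer cells of a type and less RNA per cell cannot be told apart. In every list below, replicates stand in the order 12, 13 and 18 for GD45 females, 11, 14 and 17 for GD45 males, 3, 5 and 15 for GD60 females, 4, 6 and 16 for GD60 males, 2, 7 and 9 for GD90 females, and 1, 8 and 10 for GD90 males. These are the piglet numbers of the labels.

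As background, an AMPA receptor is a tetramer of GRIA subunits, and channels that contain edited GRIA2 admit little calcium. The regulatory proteins encoded by CACNG2, CACNG3, CACNG4 and CACNG8 travel with the subunits to the membrane and slow the closing of the channel, and CNIH2 assists export from the endoplasmic reticulum and also slows gating. Each GRIA gene holds a pair of alternative exons, known as flop and flip, that code for part of the ligand-binding domain and set how fast the channel desensitizes.

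The alternative exons were found in the deposited exon table as pairs of neighbouring exons of equal length that share no transcript. Each GRIA gene held 1 such pair, and each exon was 115 bases long. A codon that is known to differ between the forms marked the upstream exon as flop and the downstream exon as flip in all 4 genes. On Sscrofa11.1, the pair of GRIA2 lies on the plus strand at chr8:46236090-46236204 and chr8:46236609-46236723. The pair of GRIA1 lies on the minus strand at chr16:69351201-69351315 and chr16:69350335-69350449. The pair of GRIA2 is shown because it had the most counts, and that of GRIA1 as the pair whose exons differ at the most bases. Capitals mark the bases that differ from the partner exon.
GRIA2 flop: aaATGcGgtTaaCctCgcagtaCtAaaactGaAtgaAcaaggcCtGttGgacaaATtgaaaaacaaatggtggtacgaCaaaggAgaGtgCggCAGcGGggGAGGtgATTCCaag
GRIA2 flip: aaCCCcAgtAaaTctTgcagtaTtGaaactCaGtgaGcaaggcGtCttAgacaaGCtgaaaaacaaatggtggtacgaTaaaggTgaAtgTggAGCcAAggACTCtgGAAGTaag
GRIA1 flop: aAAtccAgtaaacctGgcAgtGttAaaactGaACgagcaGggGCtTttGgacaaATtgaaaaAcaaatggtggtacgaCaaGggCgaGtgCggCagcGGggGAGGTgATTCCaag
GRIA1 flip: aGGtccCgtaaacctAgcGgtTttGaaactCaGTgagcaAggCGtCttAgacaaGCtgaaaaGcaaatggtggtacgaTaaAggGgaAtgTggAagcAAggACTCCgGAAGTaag
The exons of GRIA2 differed at 35 of 115 bases and those of GRIA1 at 36. The differing bases gather at the 3′ end. The pairs of GRIA3 and GRIA4 differed at 32 and 30 bases.

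CNIH2 was located through RefSeq, whose annotation places it on the minus strand at chr2:6102347-6109424. In the Ensembl annotation used by the authors, this stretch lies inside the gene model named RAB1B. The exon table holds 8 exons on this strand there. Exons were used if they share an end with an exon of RefSeq's CNIH2, share no bases with another exon and are not low in counts. This left 5 exons, and 4 of them share both ends. These 5 exons stand for CNIH2 below, a choice made after the tables were opened. One of them is the 69-base exon at chr2:6104280-6104348, which was recognised by its position, not its sequence. It reads, with no capitals since nothing is compared:
CNIH2 exon: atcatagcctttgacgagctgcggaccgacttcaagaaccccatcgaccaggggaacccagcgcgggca

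The gene table held 15118843 to 19729783 counts per library, with a median of 16413097. Markers of neurons fixed as a list were all present, and their summed level was 7128 to 8497 CPM, the count of a gene scaled to equal library totals, at GD45, 8516 to 10563 CPM at GD60 and 9390 to 10760 CPM at GD90. Male GD45 replicate 17 stood apart from its group, with a chi-square per degree of freedom of 121.8 and 143.5 against the other replicates where they reached 10.8 against each other. Female GD60 replicate 15 stood apart less, at 75.0 and 54.9 against 7.11. Where leaving out either library changed a call or a sign over both sexes, the value without it is given beside the result or in the section on processing. The labelled brain weight of male GD45 replicate 17 was 0.7135, beside 1.76 and 1.55 for replicates 11 and 14. Female GD45 replicate 18, of the same litter size, was labelled 0.6653, and its chi-square values against replicates 12 and 13 were 23.6 and 15.5. The part of brain weight was not tested.

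From GD45 to GD60, 5 of the 8 genes rose and none fell, with females and males weighed equally in edgeR's quasi-likelihood test. Of all 16325 genes tested, 9.35% were called higher and 7.37% lower. The genes that rose were CACNG3, GRIA4, GRIA1, GRIA2 and CACNG4. The median log2 fold change over the 8 genes was 0.48, beside -0.01 over all genes tested. From GD60 to GD90, 5 genes rose and 1 fell, where 21.4% of all genes were called higher and 20.9% lower. CACNG3, CACNG8, GRIA1, GRIA4 and GRIA3 rose, CACNG4 fell, and the median was 0.42, beside -0.01 over all genes. Over the whole span from GD45 to GD90, 7 genes rose and none fell (28.3% and 29.3% of all genes), and CACNG4 was the gene not called. The comparisons share the GD60 or the GD45 libraries and are not independent.

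**Figure D1:**
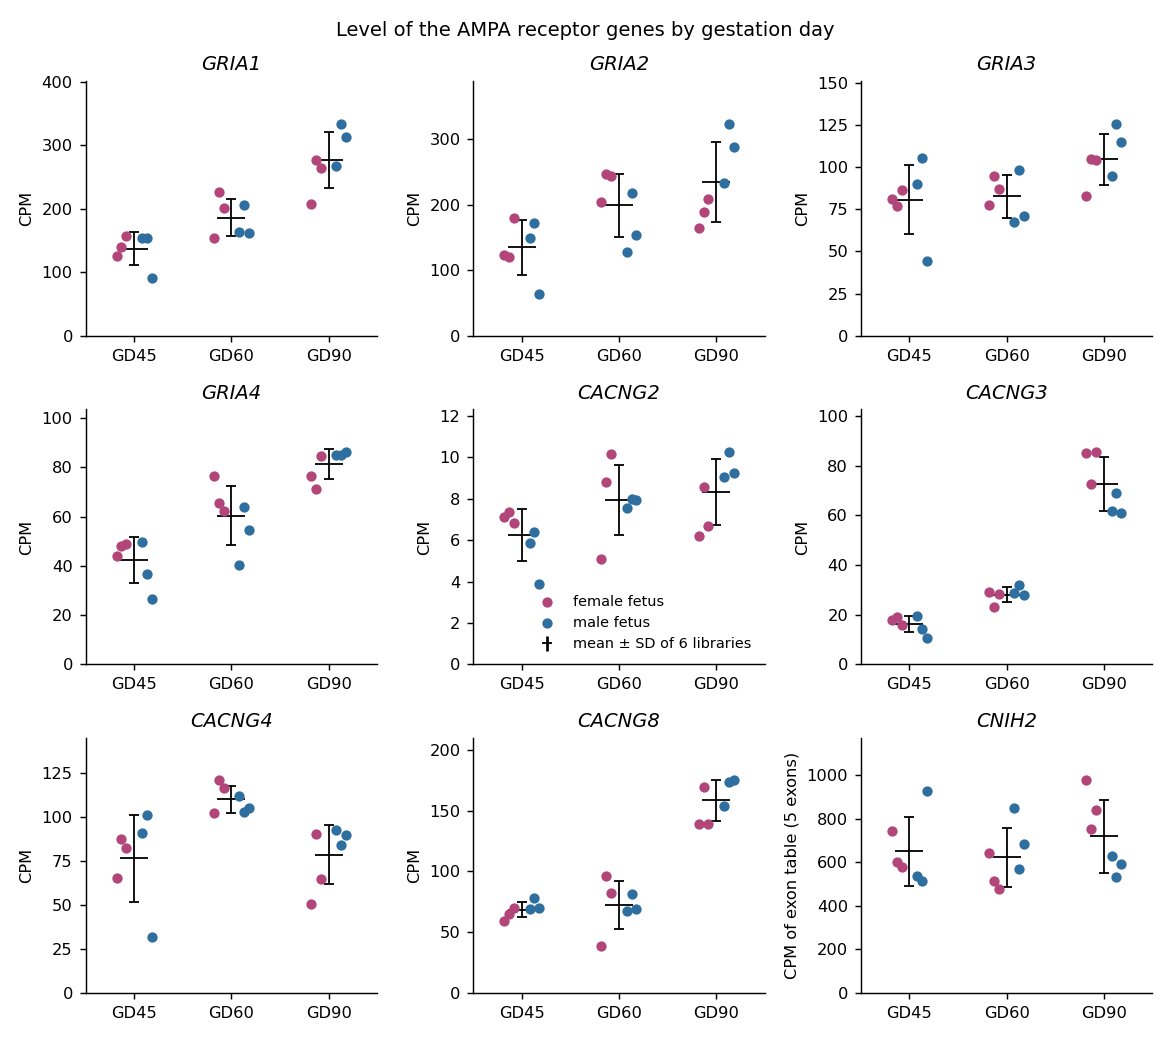
Level of each AMPA receptor gene in CPM, on a linear axis from 0, in the 18 libraries by gestation day. Each point is 1 fetus, coloured by sex, and black bars are the mean ± SD of the 6 libraries of a day. CNIH2 is the sum of 5 exons, in CPM of the exon table. CACNG3 rose from 10.7 to 19.6 CPM at GD45 to 60.8 to 85.6 CPM at GD90, and CACNG4 was highest at GD60.

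GRIA1 encodes the subunit best known for its regulated insertion at synapses. Its gene model covers chr16:69332585-69655380. At GD45, GRIA1 stood at 126, 141 and 158 CPM in females and 153, 155 and 90.8 CPM in males. At GD60 these levels were 226, 201 and 154 CPM in females and 207, 163 and 164 CPM in males. At GD90 they reached 207, 277 and 264 CPM in females and 267, 312 and 334 CPM in males. Every GD90 library was above every GD45 library, while neighbouring days overlapped by a few libraries. The log2 fold change was 0.44 ± 0.11 (SE, 6 libraries a day) from GD45 to GD60, with an adjusted p of 0.00994. For the second period, GD60 to GD90, it was 0.61 ± 0.11, with an adjusted p of 0.000279. GRIA1 passed the test in these comparisons under each alternative setting run.

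GRIA2 encodes the subunit whose edited form blocks calcium entry, at chr8:46078246-46241921. At GD45, its level was 123, 121 and 179 CPM in females and 149.9, 172 and 63.7 CPM in males, the last being replicate 17. At GD60, females stood at 247, 243 and 204 CPM and males at 217, 153 and 128 CPM. At GD90, the level was 164, 189 and 209 CPM in females and 233, 287 and 324 CPM in males. The days overlapped, and at GD90 every male was above every female. GRIA2 rose by 0.56 ± 0.17 on the log2 scale from GD45 to GD60 (adjusted p = 0.0291), and 0.41 without male GD45 replicate 17 (adjusted p = 0.030). In the second period the difference was 0.27 ± 0.16 and was not called (adjusted p = 0.207). The call from GD45 to GD60 was lost in 7 of the 27 alternative settings, with adjusted p up to 0.0831. Leaving out female GD45 replicate 12 or 13, female GD60 replicate 3 or 5, or male GD60 replicate 4 ended it, at 0.46 to 0.54.

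GRIA3 is the X-linked subunit gene, at chrX:100827461-101109209. It was at 80.9, 77.1 and 86.4 CPM in GD45 females and 90.2, 105 and 44.4 CPM in GD45 males. At GD60 the females held 94.5, 87.1 and 77.5 CPM and the males 98.2, 70.8 and 67.3 CPM, within the span of the GD45 libraries. At GD90 the levels were 82.9, 105 and 104.05 CPM in females and 94.8, 115 and 126 CPM in males. The difference from GD45 to GD60 was 0.04 ± 0.13 on the log2 scale (adjusted p = 0.871), and GRIA3 rose by 0.37 ± 0.13 from GD60 to GD90 (adjusted p = 0.0315). That rise was not called in 9 of 27 alternatives, with adjusted p up to 0.111. Leaving out female GD60 replicate 5 or 15, male GD60 replicate 6 or 16, female GD90 replicate 7 or 9, or male GD90 replicate 8 or 10 ended it, at 0.33 to 0.37. It was the subunit gene with the smallest change over the whole span, 0.42 ± 0.13 (adjusted p = 0.0134), and without TMM factors 0.37, which was not called (adjusted p = 0.0657).

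GRIA4, at chr9:35441999-35805361, encodes the subunit known from fast-spiking interneurons, thalamus and cerebellum. Its exons share bases with MSANTD4, and since the counting is not stated to use strand, reads there cannot be told apart. At GD45, GRIA4 was at 44.0, 48.2 and 49.0 CPM in females and 49.9, 36.7 and 26.6 CPM in males. It reached 65.3, 62.4 and 76.3 CPM in GD60 females and 63.8, 54.5 and 40.2 CPM in GD60 males. At GD90 it was within a narrow span, 76.5, 71.0 and 84.5 CPM in females and 84.9, 86.2 and 85.0 CPM in males. GRIA4 rose by 0.51 ± 0.11 in the first period (adjusted p = 0.00476) and by 0.47 ± 0.11 in the second (adjusted p = 0.00293). These calls held under each alternative setting run.

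Levels of different genes were compared per kilobase of gene model. At GD45, GRIA1 stood at 21.4 ± 3.99 CPM per kb (SD, n = 6), GRIA2 at 20.4 ± 6.41, GRIA3 at 14.8 ± 3.72 and GRIA4 at 4.62 ± 0.997. At GD60 GRIA2, at 30.0 ± 7.33, and GRIA1, at 29.0 ± 4.58, were level. At GD90 the order was that of GD45, with 43.1 ± 6.86 for GRIA1, 35.4 ± 9.16 for GRIA2, 19.2 ± 2.75 for GRIA3 and 8.86 ± 0.669 for GRIA4. The levels of GRIA1 and GRIA2 overlapped between fetuses on each day, as did those of GRIA2 and GRIA3 at GD45. As per-length shares of the family, which compare genes within a library, GRIA1 held 39.0% to 43.8% at GD90 and GRIA2 28.9% to 36.7%, so GRIA1 was the higher in all 6 libraries. At GD45 and GD60 these shares overlapped. Over all libraries the share of GRIA2 was at least 27.7% of the family, that of GRIA3 lay between 16.8% and 26.3%, and that of GRIA4 was at most 10.7%.

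The share of each gene in the summed GRIA counts describes the composition of the family apart from its total. GRIA3 was the only gene whose share was called, from GD45 to GD60. Shares sum to a fixed total, so a lower share of GRIA3 goes with higher shares of the others. Its level was not called in that period, while those of GRIA1, GRIA2 and GRIA4 rose. It took 21.7, 19.9 and 18.3% of the counts in GD45 females and 20.4, 22.4 and 19.7% in GD45 males. At GD60 it took 14.9, 14.7 and 15.1% in females and 16.8, 16.1 and 16.8% in males. The days did not overlap, and male GD45 replicate 17, which was low in the level of every GRIA gene, lay inside its group on this measure.

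The mean share of GRIA3 went from 20.4 ± 1.47% (SD, n = 6) to 15.7 ± 0.957%, a difference of -4.66 percentage points. The exact two-sided permutation test over libraries gave p = 0.00216, the smallest it can give, and 0.0173 after Benjamini-Hochberg adjustment over the 8 tests of shares. With the exon table in place of the gene table the difference was -3.31 points and was not called (adjusted p = 0.147). In the second period the share of GRIA3 changed from 15.7% to 15.1 ± 0.936% (adjusted p = 0.402).

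The other shares were not called in either period. GRIA1 went from 35.5 ± 3.55% at GD60 to 39.8 ± 1.72% at GD90, with an adjusted p of 0.0779 in the exact permutation test, and 0.00866 without male GD60 replicate 16. The share of GRIA2 was 33.5 ± 3.55% at GD45, 37.3 ± 3.36% at GD60 and 33.2 ± 3.05% at GD90. That of GRIA4 was 10.9 ± 1.67%, 11.5 ± 1.85% and 11.9 ± 1.67%. The 2 fetuses of a litter, as inferred from equal litter sizes, are not fully independent, and an exact permutation test of litter means, 3 against 3, cannot go below p = 0.10.

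**Figure D2:**
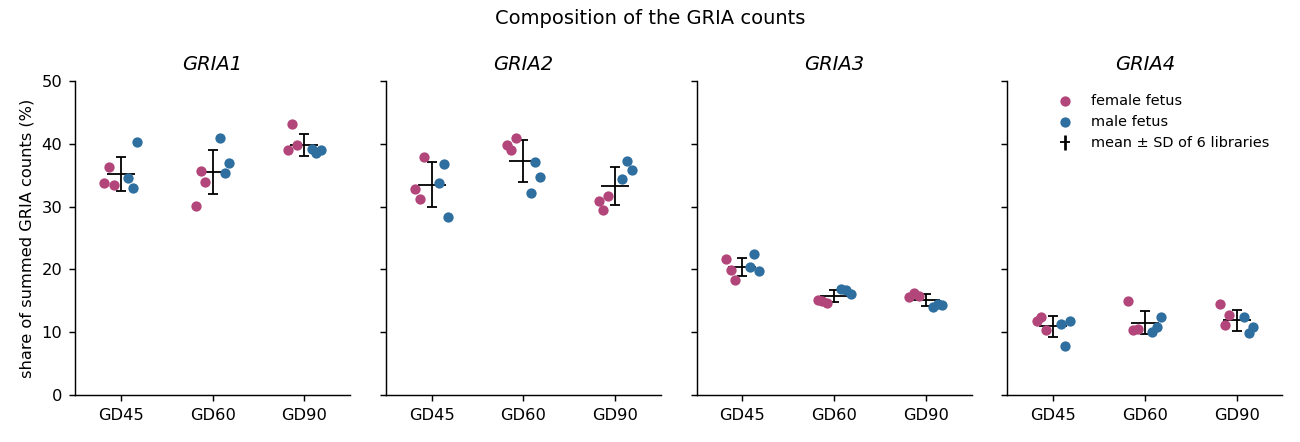
Share of each GRIA gene in the summed counts of the 4 GRIA genes (percent, linear axis from 0) by gestation day. Points are single fetuses coloured by sex, and black bars are the mean ± SD of 6 libraries. The share of GRIA3 was 18.3% or higher in all GD45 libraries and 16.8% or lower in all GD60 libraries.

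CACNG3 encodes a regulatory protein of the cortex, gamma-3, at chr3:21855852-21961198. Its levels were 17.9, 19.1 and 15.8 CPM in GD45 females and 19.6, 14.4 and 10.7 CPM in GD45 males. In GD60 females they were 23.1, 28.2 and 29.0 CPM, and in GD60 males 31.9, 28 and 28.7 CPM. By GD90 they were 85.2, 72.8 and 85.6 CPM in females and 61.8, 60.8 and 69.2 CPM in males. No library of one day overlapped with another day. CACNG3 rose by 0.80 ± 0.11 on the log2 scale from GD45 to GD60 (adjusted p = 9.5e-05) and by 1.39 ± 0.11 from GD60 to GD90 (adjusted p = 4.65e-08). The mean level rose 4.47-fold over the whole span, the largest rise among the 8 genes. All 4 of its tested exons were called higher at GD90 than at GD60, where 6.48% of 80134 tested exons were, and these exon counts come from the same reads.

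CACNG8 encodes gamma-8, a regulatory protein abundant in the hippocampus, at chr6:56154750-56175002. Its exons share bases with the microRNA gene ssc-mir-935. At GD45 it stood at 59.0, 64.6 and 69.9 CPM in females and 69.2, 78.0 and 70.2 CPM in males. At GD60 the females were at 96.4, 82.5 and 39.0 CPM, the last being replicate 15, and the males at 81.4, 68.9 and 67.0 CPM. At GD90 the levels were 139, 169.6 and 139 CPM in females and 154, 175 and 173 CPM in males. The levels of GD45 and GD60 overlapped, and those of GD90 were all higher. The difference was 0.07 ± 0.14 in the first period (adjusted p = 0.790), and CACNG8 rose by 1.17 ± 0.15 in the second (adjusted p = 7.9e-06). Without female GD60 replicate 15 the rise in the second period was 1.03 (adjusted p = 3.91e-07). All 5 of its tested exons were called higher at GD90 than at GD60.

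CACNG4 encodes gamma-4, a regulatory protein known for early expression and for glia as well as neurons, at chr12:13391078-13452174. It was at 65.5, 87.6 and 82.2 CPM in GD45 females and 91.0, 101 and 32.0 CPM in GD45 males. All GD60 libraries were higher, at 121, 117 and 102 CPM in females and 103, 105 and 112 CPM in males. At GD90 the level was down at 50.7, 90.2 and 64.7 CPM in females and 92.3, 89.8 and 83.9 CPM in males. The GD60 libraries did not overlap with those of either other day. CACNG4 rose by 0.54 ± 0.18 to GD60 (adjusted p = 0.0473) and fell by 0.46 on the log2 scale to GD90 (SE 0.18, adjusted p = 0.0465). These adjusted p values lie just under the threshold of 0.05, and the calls were lost in 16 and 17 of the 27 alternatives, with adjusted p up to 0.112 and 0.197. Leaving out any 1 of the GD60 libraries ended both calls, at 0.50 to 0.57 for the rise and -0.49 to -0.43 for the fall. Without male GD45 replicate 17, the lowest GD45 library, both calls held, at 0.37 for the rise (adjusted p = 0.0316) and -0.46 for the fall (adjusted p = 0.00222). With the trend of each library on gene length removed the changes were 0.58 (adjusted p = 0.107) and -0.40 (adjusted p = 0.197).

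CACNG2 encodes stargazin, the regulatory protein of the cerebellum and the founding member of its family, at chr5:11067692-11185505. It was the lowest of the 8 genes. At GD45 it stood at 7.13, 7.34 and 6.84 CPM in females and 5.88, 6.40 and 3.89 CPM in males. GD60 females had 8.82, 10.2 and 5.07 CPM and GD60 males 8.01, 7.95 and 7.54 CPM. GD90 females had 6.18, 8.56 and 6.67 CPM and GD90 males 9.07, 9.23 and 10.3 CPM. The days overlapped. CACNG2 was not called in either period (0.35 ± 0.15, adjusted p = 0.108, then 0.10 ± 0.14, adjusted p = 0.620) and rose by 0.45 ± 0.15 over the whole span (adjusted p = 0.0141). Without female GD60 replicate 15, the lowest GD60 library, it was called from GD45 to GD60 (0.46, adjusted p = 0.0153) and stood at -0.014 from GD60 to GD90 (adjusted p = 0.939).

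Per kilobase, the order of the regulatory proteins at GD90 was CACNG4 at 77.0 ± 16.7 CPM per kb (SD, n = 6), CACNG8 at 39.0 ± 4.07, CACNG3 at 28.4 ± 4.26 and CACNG2 at 6.97 ± 1.32. Each step between these means was larger than the SD. In female GD90 replicates 2 and 9 CACNG8 was only just above CACNG3, at 34.2 and 34.3 beside 33.3 and 33.5 CPM per kb. At GD45 the values were 75.0 ± 24.3 for CACNG4, 16.8 ± 1.56 for CACNG8, 6.35 ± 1.31 for CACNG3 and 5.23 ± 1.06 for CACNG2. The ranges of CACNG3 and CACNG2 across fetuses overlapped, but within each GD45 library CACNG3 was the higher. The gene model of CACNG4 is 1020 bases long and that of CACNG8 4067, and a model that leaves out part of the transcript gives a wrong value per kilobase.

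CNIH2, summed over its 5 exons, was at 745, 604 and 579 CPM of the exon table in GD45 females and 537, 516 and 929.6 in GD45 males. It stood at 515, 477 and 644 in GD60 females and 569, 685 and 851 in GD60 males, and at 977, 753 and 840.2 in GD90 females and 631, 591 and 534 in GD90 males. The days overlapped, and the highest GD45 value was that of replicate 17. In the fit of 80134 exons, 0 of the 5 exons were called in either period, where 1.96% and 12.6% of all exons were, and 0 had an unadjusted p under 0.05. From GD45 to GD90 0 of the 5 were called, where 30.8% of all exons were, and 1 was called without male GD45 replicate 17. The log2 fold changes of the 5 exons lay between -0.35 and 0.27 from GD45 to GD60 and between -0.02 and 0.32 from GD60 to GD90. In the second period they were 0.19 to 0.91 in females and -0.55 to 0.01 in males. None was called in either sex, where 3.63% and 8.61% of all exons were. The difference of this change between the sexes was called in 0 of the 5, as in 0% of all exons. In edgeR 3 of the 5 had an unadjusted p under 0.05 for it, and the share of all exons was not counted. At GD90 the females lay above the males in all 3 libraries, and the exon that differed most had a log2 difference of -0.97 ± 0.36, males against females, which was not called (adjusted p = 0.410). Between the sexes at GD90, 0.0287% of all exons were called. There 2 of the 5 had an unadjusted p under 0.05 in edgeR, and that share of all exons was not counted either. The 5 exons belong to the same gene in the same fetuses and are not separate results.

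Among the other members, 6 of 17 exons of GRIA1 were called higher at GD90 than at GD60, as were 2 of 10 of GRIA4 and 1 of 15 of GRIA2. For GRIA3 it was 0 of 13 and for CACNG2 0 of 3. Of the 5 exons of CACNG4, 1 was called lower, where 6.08% of all exons were. From GD45 to GD60 0 of the 77 tested exons of the 9 genes were called by edgeR, where 1.12% of all exons were called higher and 0.841% lower. An unadjusted p under 0.05 in edgeR was found in 12 of the 77, and the share of all exons was not counted.

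Non-overlap of libraries gave a second count that needs no model. In the first period every library of the later day was above every library of the earlier day for CACNG3 and CACNG4, 2 of 8 genes, beside 4.71% of the 14622 genes with a mean of at least 1 CPM. In the second period this held for CACNG3 and CACNG8, beside 12.4%, and the later day was wholly lower for CACNG4, beside 13.9%. From GD45 to GD90 it held for GRIA1, GRIA4, CACNG3 and CACNG8, beside 17.5%.

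Within each sex fewer genes passed, with 3 fetuses a group. From GD45 to GD60, 2 of the 8 genes rose in females (4.34% of all genes were called higher) and 1 in males (3.08%). CACNG3 rose in both, by 0.63 ± 0.15 in females (adjusted p = 0.0207) and 0.98 ± 0.16 in males (adjusted p = 0.00145), and GRIA4 rose in females by 0.56 ± 0.16 (adjusted p = 0.0453). In females the call of GRIA4 was lost in 16 of 27 alternatives, among them leaving out any 1 of the 6 libraries compared (adjusted p of 0.0603 to 0.155). That of CACNG3 was lost without female GD45 replicate 12 or 18 or female GD60 replicate 5 or 15, at 0.52 to 0.65 (adjusted p of 0.0597 to 0.103). In males the call of CACNG3 was lost with the compared groups alone (0.96, adjusted p = 0.122). Without male GD45 replicate 17, which enters the estimate of the spread for both sexes, 5 genes passed in females, where 2329 of 16631 genes were called in either direction, beside 7.22% of genes with it. Leaving out female GD45 replicate 12, female GD45 replicate 18 or female GD60 replicate 5 left 0 in females. From GD60 to GD90, 3 genes rose in females (13.7% of all genes) and 5 in males (18.5%).

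CACNG3, CACNG8 and GRIA1 passed in each sex in the second period. CACNG3 rose by 1.68 ± 0.15 in females (adjusted p = 1.1e-06) and by 1.10 ± 0.15 in males (adjusted p = 6.2e-05). CACNG8 rose by 1.14 ± 0.21 and 1.19 ± 0.21 (adjusted p = 0.000596 and 0.000394), and GRIA1 by 0.45 ± 0.15 and 0.76 ± 0.15 (adjusted p = 0.0380 and 0.00141). The call of GRIA1 in females was lost in 7 of 27 alternatives, with adjusted p from 0.0551 to 0.182. These were no TMM factors, no filter, the compared groups alone, and leaving out female GD60 replicate 5 or 15 or female GD90 replicate 7 or 9, at 0.34 to 0.46. GRIA2 and GRIA4 passed in males, at 0.75 ± 0.23 (adjusted p = 0.0206) and 0.68 ± 0.16 (adjusted p = 0.00402). The call of GRIA2 in males was lost without male GD60 replicate 6 or 16 or male GD90 replicate 8 or 10, at 0.63 to 0.71 and adjusted p of 0.0595 to 0.0976. In females their values were -0.22 ± 0.23 (adjusted p = 0.529) and 0.26 ± 0.16 (adjusted p = 0.239).

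**Figure D3:**
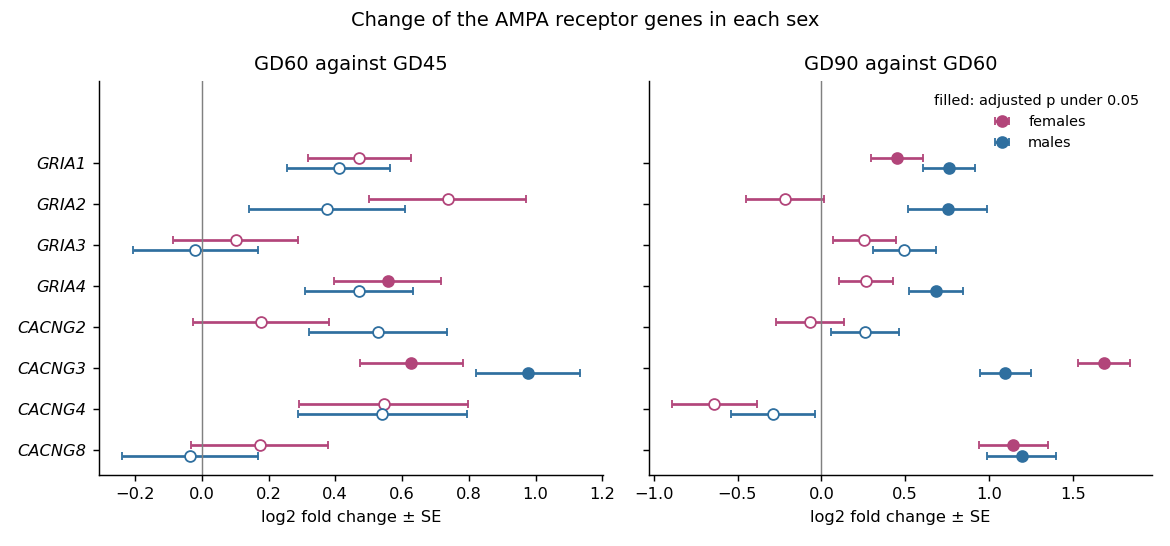
Log2 fold change with its SE (bars) of the 8 genes found by name, in females and in males, from GD45 to GD60 (left) and from GD60 to GD90 (right). Filled points have an adjusted p under 0.05. From GD60 to GD90, GRIA2 was at 0.75 in males and -0.22 in females, and CACNG3 at 1.10 in males and 1.68 in females.

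Between males and females, 0 of the 8 genes were called by edgeR at GD45, GD60 and GD90, where 0.0919%, 0.098% and 0.098% of all genes were called. At an unadjusted p under 0.05 the counts were 0, 0 and 2, beside 423, 784 and 2213 of all 16325 genes. DESeq2 also called 0, 0 and 0 of the 8. The 2 genes at GD90 were GRIA2 and CACNG3, named here after their values were seen. GRIA2 was higher in males, at 0.53 ± 0.23 (adjusted p = 0.355), and CACNG3 was lower in males, at -0.40 ± 0.15 (adjusted p = 0.350). In both, the 3 male libraries lay apart from the 3 female libraries. The same held for GRIA4 and CACNG2, both higher in males. For GRIA4 the gap was narrow, 84.5 CPM in the highest female beside 84.9 CPM in the lowest male. The share of all genes with such a gap was not counted, so the gap alone cannot be read as a sex difference.

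The change from GD60 to GD90 was compared between the sexes as an interaction. By the adjusted test 0 of 8 genes were called, as were 0% of all genes, and DESeq2 called 0. An unadjusted p under 0.05 in edgeR was found in 2 of the 8, beside 3232 of all 16325 genes. The difference of the changes, males less females, was 0.97 ± 0.33 for GRIA2 (adjusted p = 0.205) and -0.59 ± 0.21 for CACNG3 (adjusted p = 0.206). Male GD45 replicate 17 belongs to no group of this comparison and enters it only through the shared spread, scaling and filter. With it left out, both were called (0.96, adjusted p = 0.0229, and -0.60, adjusted p = 0.0448), as were 13.3% of all genes. With the trend of each library on gene length removed, they were 0.73 (adjusted p = 0.282) and -0.42 (adjusted p = 0.348). For GD45 to GD60 the interaction was called in 0 genes by edgeR and by DESeq2. In edgeR 0 of the 8 had an unadjusted p under 0.05, beside 333 of all 16325 genes.

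AMPA receptors were set beside the other ionotropic glutamate receptor families, as shares of the summed counts per length of 4 AMPA, 7 NMDA and 5 kainate receptor genes. NMDA receptors admit calcium and serve as coincidence detectors, and kainate receptors act mainly as modulators. AMPA genes held 24.9, 23.4 and 28.05% in GD45 females and 25.6, 28.7 and 16.6% in GD45 males, the last in replicate 17. At GD60 they held 26.1, 25.9 and 26.6% in females and 26.5, 20.2 and 20.3% in males. At GD90 they held 19.5, 20.9 and 22.2% in females and 22.3, 25.99 and 26.3% in males. The days overlapped throughout.

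The mean AMPA share was 24.5 ± 4.38% at GD45, 24.3 ± 3.13% at GD60 and 22.9 ± 2.74% at GD90 (SD, n = 6). Neither step was called in the exact permutation test (adjusted p = 0.920 and 0.540 over 6 tests). NMDA genes went from 39.0 ± 2.79% to 46.3 ± 2.38% and 57.2 ± 2.40%, and kainate genes from 36.4 ± 3.55% to 29.4 ± 0.994% and 19.9 ± 0.684%. No library of one day overlapped with the next in these families, and each of the 4 steps had p = 0.00216, the smallest the exact permutation test can give (adjusted p = 0.00325).

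**Figure D4:**
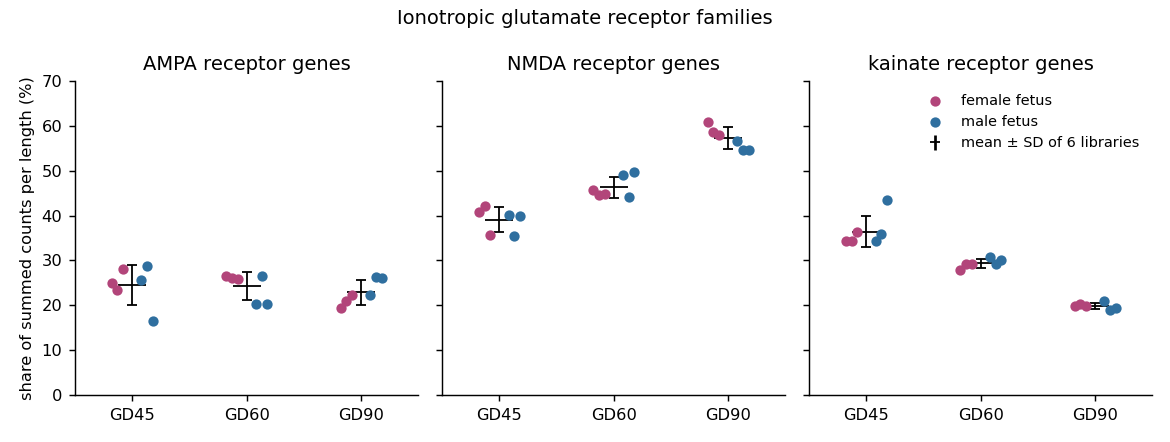
Shares of the AMPA, NMDA and kainate receptor genes in their summed counts per length (percent, linear axis from 0) by gestation day. Points are single fetuses coloured by sex, and black bars are the mean ± SD of 6 libraries. The AMPA share stayed between 16.6% and 28.7% with overlapping days, while the NMDA share was higher and the kainate share lower on each later day.

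Counts of the flop and flip exons were low. Per library they summed to 7 to 169 in GRIA2, whose exons are printed above, and to 1 to 48, 3 to 34 and 2 to 17 in GRIA1, GRIA3 and GRIA4. Reads of 150 bases are longer than these exons, and how the authors counted reads across several exons is not stated. The exon table held 11.4% to 33.4% of the gene-table counts of GRIA2. The median of this recovery over 6 libraries was 19.1% on GD45, 18.0% on GD60 and 27.6% on GD90, and its part in the shares was not tested. The downstream exons of GRIA2 and GRIA3 also share bases with another exon of the table. A share of the flop exon is therefore no share of isoforms.

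In GRIA2 the flop exon had 230 of 293 counts at GD45, 295 of 409 at GD60 and 291 of 430 at GD90, summed over 6 libraries. Per library its share was 73.9% to 100%, with a median of 78.0%, at GD45. It was 44.8% to 82.1%, with a median of 73.0%, at GD60, and 28.6% to 74.5%, with a median of 66.4%, at GD90. The mean share differed by -11.8 points from GD45 to GD60 and by -8.94 points from GD60 to GD90, and neither was called (exact permutation test, adjusted p = 0.387 and 0.491 over 8 tests). In GRIA1 the flop exon had 27 of 77 counts at GD45, 30 of 85 at GD60 and 53 of 183 at GD90. The flop counts were 4 of 26, 16 of 47 and 36 of 102 in GRIA3, and 12 of 33, 13 of 46 and 32 of 73 in GRIA4. None of the 8 steps was called.

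**Figure D5:**
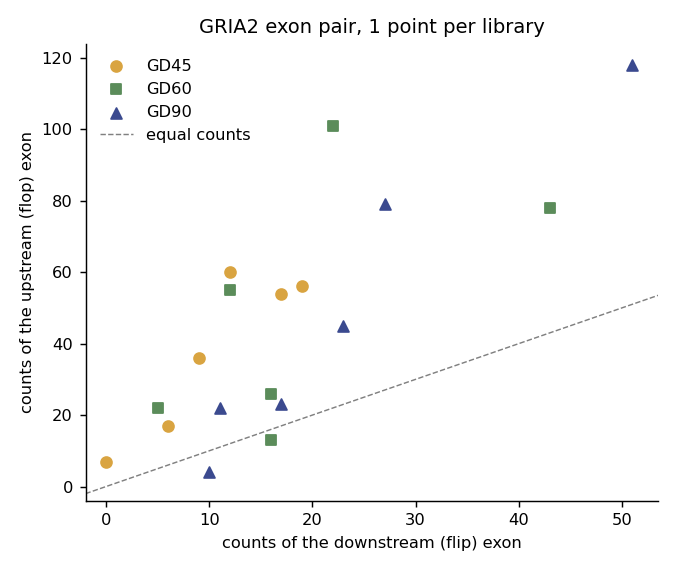
Counts of the upstream flop exon against the downstream flip exon of GRIA2, 1 point per library, with gestation day by colour and shape. The dashed line marks equal counts. At GD45 all 6 libraries lay above the line, and 1 library at GD60 (13 and 16 counts) and 1 at GD90 (4 and 10 counts) lay below it.

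Proteins that work with AMPA receptors were followed as a list of 26 genes, of which 24 were found by name and tested. SHISA6 and EPB41L1 were not found by name. From GD45 to GD60, 8 rose and 0 fell, and from GD60 to GD90, 15 rose and 1 fell. The shares of all genes called higher, 9.35% and 21.4%, and the medians of all genes are those given above. The median log2 fold change of the partners was 0.33 and 0.64. By role, the second period had 4 of 9 other auxiliary subunits higher, 4 of 5 genes of assembly, 3 of 6 anchors, all 3 genes of synaptic clustering and the editing enzyme. The gene that fell was GRIP1, an anchor of GRIA2 (-0.51 ± 0.18, adjusted p = 0.0302), named after its values were seen.

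The partners that rose in both sexes in the first period were PRRT1, GRIP2 and NPTXR. PRRT1, an auxiliary protein also called SynDIG4, rose by 0.84 ± 0.10 over both sexes (adjusted p = 1.7e-05). GRIP2, a PDZ anchor of GRIA2 and GRIA3, rose by 0.90 ± 0.10 (adjusted p = 1.7e-05) and then stood at 0.04 ± 0.10 (adjusted p = 0.785). NPTXR, the membrane-bound pentraxin that clusters AMPA receptors, rose by 0.87 ± 0.09 (adjusted p = 9.1e-06).

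From GD60 to GD90, 9 named partners rose in both sexes. NSF, an ATPase that binds GRIA2, rose by 1.55 ± 0.19 (adjusted p = 5.5e-06), and AKAP5, a scaffold that holds kinases at the receptor, by 1.30 ± 0.14 (adjusted p = 1.3e-06). The pentraxins NPTX2 and NPTX1, which gather receptors from outside the cell, rose by 1.13 ± 0.23 and 0.62 ± 0.11, and NPTXR by 1.04 ± 0.09. PRRT1 rose by 0.93 ± 0.09. ADARB1, the enzyme that edits GRIA2 RNA, rose by 0.72 ± 0.08 (adjusted p = 1.1e-06). ABHD6, a lipase that holds back delivery of the receptor, rose by 0.65 ± 0.08, and OLFM1, a secreted olfactomedin, by 0.61 ± 0.10.

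Markers of some cell types also rose or fell with gestation day, while others overlapped on all days. Their part in the results was not tested. Summed markers of excitatory neurons were 85.1 to 155 CPM at GD45, 143 to 194 CPM at GD60 and 493 to 589.8 CPM at GD90, with both listed genes in the table. Those of inhibitory neurons, 3 of 3 genes, were 204 to 331, 232 to 368 and 445 to 484 CPM. Markers of the oligodendrocyte lineage, 9 of 9 genes, were 142 to 254, 299.8 to 376 and 2201 to 3578 CPM, and those of astrocytes, 5 of 6 genes, 103 to 244, 292 to 465 and 1457 to 1951 CPM. Progenitor markers, 6 of 8 genes, went the other way, from 1320.2 to 1554 CPM at GD45 to 472 to 614 CPM at GD90. The ranges at GD45, GD60 and GD90 were 43.3 to 62.8, 58.4 to 81.9 and 113 to 142 CPM for microglia, 5 of 5 genes. They were 278 to 409, 275 to 410.1 and 303 to 445 CPM for endothelium, 4 of 4 genes, and 264 to 661, 158 to 302 and 94.1 to 169.8 CPM for erythroid cells, 4 of 5 genes. Connective tissue and muscle, 8 of 8 genes, gave 683 to 1502, 933 to 1312 and 1078 to 1451 CPM. Cerebellar markers, 5 of 5 genes, were 75.7 to 207 CPM at GD45, 54.2 to 142 CPM at GD60 and 59.3 to 224 CPM at GD90. No listed marker in the table was at 0 in all libraries.

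The genes most like each GRIA gene were sought by Pearson's r of log2 CPM over the 18 libraries, among 12802 genes. Libraries share depth and the libraries that stand apart, so these values describe likeness only. KCNMA1, FHOD3 and RASGRF2 were most like GRIA1, at r of 0.99, 0.98 and 0.98. WWC3, CLIP1 and CNTN5 were most like GRIA2, at 0.98, 0.97 and 0.96. EIF4G3, CD47 and ATP2C1 were most like GRIA3, at 0.96, 0.95 and 0.95, and NCAM2, PDE8A and OSBPL6 most like GRIA4, at 0.96, 0.96 and 0.95.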

How the data were processed

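Trimmomatic (trimming), HISAT2 (alignment to Sscrofa11.1) and featureCounts (counting on the Ensembl annotation) were the authors' tools for the paired reads. The authors deposited raw counts per gene, exon and transcript. Options for strand, multiple matches and shared features are not given in the sources used here. The tables hold 22 columns for 18 libraries, and the 4 second runs were summed. CPM divides by the library total of its table.

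Genes (16325 after filterByExpr, 99.9% of counts) and exons (80134) were fitted with edgeR 4.0.16 in R 4.3.3, with TMM factors, 1 model of 6 groups over all libraries, glmQLFTest and p-values adjusted over the whole table by Benjamini-Hochberg (threshold 0.05). Sexes were averaged for comparisons over both. The model steps were tested on simulated counts. Shares were tested by exact two-sided permutation over libraries. Sequences were read from the Sscrofa11.1 genome with pysam.

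Named genes are the 9 members, partners called the same way in both sexes in a period (at most 3 per role and direction), and 3 genes most like each GRIA gene. Members and lists were chosen with earlier results of these data known. Alternatives were DESeq2 1.42.0, edgeR's likelihood ratio test, other size factors and filters, the compared groups alone, the litter as a block, each library left out, and, chosen after seeing the data, the trend on gene length removed. The litter was a block in limma 3.58.1 for comparisons of days, and a term in edgeR for those of sex and the interaction. The main tests, also between males and females, took no account of litters. Replicates are separate fetuses. The labels give no dam; each male was paired with the female of the same day and litter size, giving 9 inferred litters, and the correlation of litter mates over genes was 0.104. No source used here mentions molecular identifiers, so PCR copies may be among the counts.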

Additional observations from a re-analysis of the deposited data

Results flagged for a closer look

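Of 60 groups of 6 libraries examined, 5 held a library far from the nearest other one, where chance flags about 1 in 20. Female GD90 replicate 7 had the highest share of GRIA1 among the GRIA counts at GD90, 43.2%, with the next library at 39.9%. Male GD45 replicate 17 had the highest share of kainate receptor genes at GD45, 43.5%, with the next at 36.3%. Male GD45 replicate 17 also had 100% of its 7 counts of the GRIA2 pair on the flop exon, and female GD60 replicate 15 had 100% of its single count of the GRIA1 pair on the flop exon. Female GD90 replicate 2 had the lowest flop share of GRIA2 at GD90, 28.6% of 14 counts, with the next at 57.5%.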

How the results depend on the processing

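Over both sexes, GRIA1, GRIA4 and CACNG3 kept their calls in both periods, as did CACNG8 from GD60 to GD90, in all 27 alternatives. From GD45 to GD60, 3 of the 8 genes were called without TMM factors and with only the libraries of the groups compared. In females 4 were called by DESeq2 and with the compared groups alone, and 1 without TMM factors or without the filter. In males 0 were called with the compared groups alone and 2 with the length trend removed. With the compared groups alone, 2 genes were called between the sexes at GD90, GRIA2 and CACNG3 (edgeR, adjusted p = 0.0475 and 0.0480). The interaction from GD60 to GD90 was then called in 1, GRIA2 (adjusted p = 0.0411). The share of all genes called was not counted in these alternative fits. With the inferred litter as a replicate block, 5 of the 8 genes were called from GD45 to GD60 and 5 from GD60 to GD90, where CACNG4 was lost (-0.48, adjusted p = 0.0554), and GRIA3 in males from GD45 to GD60 was 0.015. Without TMM factors CACNG8 in males was 0.00017. These 2 values changed sign and were not called.

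With 1 library left out, the counts ranged from 3 to 5 (GD45 to GD60), 0 to 5 (females), 1 to 2 (males), 4 to 6 (GD60 to GD90), 2 to 4 (females), 4 to 6 (males) and 0 to 2 (interaction, GD60 to GD90). The count of 3 came without female GD45 replicate 12 or 13, female GD60 replicate 3 or 5, or male GD60 replicate 4. Some changes not called with all libraries took both signs. From GD45 to GD60, GRIA3 ranged from -0.085 to 0.14 (males -0.26 to 0.18), CACNG8 from -0.052 to 0.21 (females -0.070 to 0.45, the latter called without female GD60 replicate 15, adjusted p = 0.0464, males -0.11 to 0.031) and CACNG2 in females from -0.014 to 0.39. From GD60 to GD90, CACNG2 ranged from -0.014 to 0.19 (females -0.29 to 0.12), and over the whole span CACNG4 from -0.086 to 0.20.

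Among shares, in percentage points, litter means cannot reach the threshold, and gave -4.66 for GRIA3, 7.29 and 10.9 for NMDA, and -7.04 and -9.51 for kainate genes. The exon table gave -3.31 for GRIA3 and -2.61 for GRIA4 from GD45 to GD60. The transcript table, with 0.147% to 20.6% of the gene counts, gave -0.89 for GRIA1, 0.25 for GRIA3 and -0.58 for GRIA4 from GD45 to GD60, and -9.05 for GRIA2 (adjusted p = 0.0173, exact permutation test) and 0.13 for GRIA3 from GD60 to GD90. With counts in place of counts per length the AMPA share changed by 0.53 from GD45 to GD60. The exon pairs of the 4 genes summed gave -6.34 and -9.45, against the direction of GRIA1 in the first period, GRIA4 in the second and GRIA3 in both. With 1 library left out, GRIA1 ranged from -0.82 to 1.34 and from 3.26 to 5.42, GRIA4 from -0.084 to 0.90 and from -0.13 to 1.05, AMPA from -1.84 to 0.59 and the GRIA1 flop exon from -8.59 to 8.44 (GD45 to GD60). The cause of these changes was not tested.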

Other observations

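A short form of GRIA4, GRIA4-205 in the deposited annotation, ends in an exon of its own at chr9:35730176-35731355, which is 1180 bases long. It was looked at after the exon counts were seen. The exon stood at 9.17 ± 2.44 CPM of the gene table at GD45, 11.0 ± 2.77 CPM at GD60 and 16.5 ± 3.86 CPM at GD90 (SD, n = 6). Its counts equalled 17.4% to 24.5% of the GRIA4 gene counts at GD45, 14.9% to 20.9% at GD60 and 16.1% to 28.6% at GD90, and the days overlapped. The exon table held a median of only 39.1%, 32.1% and 41.4% of the GRIA4 gene counts on these days. The percentages are therefore no share of the short form. In the fit of all exons the log2 fold change of this exon was 0.71 ± 0.23 from GD45 to GD90 (adjusted p = 0.0222). That of the whole gene, from the separate fit of genes, was 0.99 ± 0.11. The exon was not called in either single period.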
